A study of Mus musculus with 9 samples.

Results

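Activity-regulated genes are the genes a neuron switches on within minutes to hours of synaptic input. Calcium entering through NMDA receptors and voltage-gated channels acts through calmodulin, its kinases and the MAP kinase cascade on factors already bound to these genes, chiefly CREB, SRF and MEF2. The first genes to respond encode transcription factors, and later ones encode secreted and synaptic proteins and phosphatases that turn the signal off. In the hippocampus this response is used to mark cells engaged by experience, and it is needed for lasting memory. Its level in tissue is known to follow recent experience.

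Members were the rows of the deposited count table whose mouse symbol is one of 36 listed activity-regulated genes. The list goes by symbol and not by a measured value, but it was chosen with earlier results of these data known. All 36 had a row among the 31804 genes of the table, and all 36 passed the filter on low counts that left 16438 genes. By role, 9 encode AP-1 and related bZIP factors, 10 zinc finger, nuclear receptor and other factors, 5 synaptic, secreted and enzyme effectors, and 12 feedback regulators of signalling and growth.

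PolyA RNA-seq was done on hippocampus of male C57BL/6NCrl mice, an inbred strain, in 3 groups of 3 libraries. The viral vector was a recombinant adeno-associated virus, put into the dorsal hippocampus by stereotaxic injection at 8 weeks of age, with tissue taken 3 weeks later. It carried either a non-targeting control hairpin RNA, hairpin A against Camta1 (shRNA A) or hairpin B against Camta1 (shRNA B). All groups therefore carried virus and the mCherry marker by which the infected tissue was cut out. Camta1 encodes a calmodulin-binding transcription activator, and the comparison addresses whether these calcium-responsive genes differ when its mRNA is lowered. The hairpin was not limited to neurons by anything the labels state, and no label describes a stimulus or behavioural task before the tissue was taken. Libraries carry the name of their group and their labelled number, and p-values measure the spread between these libraries.

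Library totals ran from 29123744 to 38189288 counts. Camta1 stood at 427 to 455 CPM (counts scaled for library size and TMM factor) in the controls and at 145 to 266 CPM in all 6 knock-down libraries. Relative to control, shRNA A left 49.8% ± 9.36 (SD, n = 3) and shRNA B left 49.1% ± 14.3 (SD, n = 3). Setting the 6 knock-down libraries against the 3 controls, an exact permutation test (two-sided) had p = 0.0119, the smallest it can give. All 13 pan-neuronal markers were measured in every library, at a summed 8809 to 10590 CPM. In bulk tissue, fewer cells of a type and less RNA per cell cannot be told apart.

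Stretches of promoter DNA are shown because signalling to CREB and SRF acts through such sites. The part of these sites in the levels of the members was not tested. They come from RefSeq's GRCm38.p6 windows, 250 bases before to 50 after a start, which matched 26 of the 36 members. Capitals mark the CRE core TGACG or its reverse complement CGTCA, the full cAMP response element TGACGTCA bound by CREB, or the CArG box bound by SRF. Each line runs 5′ to 3′ on the gene's strand and ends before the start. The gene, its region and its strand precede the sequence.
Fos, chr12:85473751-85473838, plus strand: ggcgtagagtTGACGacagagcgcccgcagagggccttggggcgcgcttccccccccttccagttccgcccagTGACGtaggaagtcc
Npas4, chr19:4990126-4990160, minus strand: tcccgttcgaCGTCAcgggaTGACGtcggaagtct
Dusp1, chr17:26508598-26508673, minus strand: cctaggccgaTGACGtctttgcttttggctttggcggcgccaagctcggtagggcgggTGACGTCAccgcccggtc
Dusp5, chr19:53529053-53529104, plus strand: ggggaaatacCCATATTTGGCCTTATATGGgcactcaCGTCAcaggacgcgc
Fosb, chr7:19310091-19310115, minus strand: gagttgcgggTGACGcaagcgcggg
Junb, chr8:84978840-84978864, minus strand: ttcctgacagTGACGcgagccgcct
Atf3, chr1:191183334-191183350, minus strand: aatagcattaCGTCAgc

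In Fos the CRE cores began at -129 and -66 from the start, in Npas4 at -179 and -169, and in Atf3 at -7. Dusp5 held 2 adjoining CArG boxes, at -82 and -72, followed by a CRE core at -55. Dusp1 held a full CRE at -143. Searched on both strands, a full CRE lay in the window of 3 of the 26 matched members (Btg2, Dusp1 and Maff), or 11.5%, against 2.03% of 27025 genes with a window. A CRE core lay in 17 of 26 (65.4%) against 23% of genes, where a full CRE counts as a core on each strand. A CArG box lay in Dusp5 and Egr2 (7.69% of members) against 1.81% of genes, and the AP-1 site TGANTCA only in Bdnf among the matched members, against 8.97% of genes. CGCG, the core of the sequence that plant relatives of Camta1 bind, lay in 22 of 26 (84.6%) against 40.6% of genes. These shares count a gene with a match in any of its windows, and the 26 members had 39 windows, the 27025 genes 32851. By window, a full CRE lay in 7.69% against 1.79% and a CRE core in 51.3% against 20.8%. A CArG box lay in 12.8% against 1.63%, the AP-1 site in 2.56% against 7.81% and CGCG in 66.7% against 38%. Base composition was not matched between members and other genes, and a match of letters says nothing of binding in this tissue.

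Levels of the members in control tissue spanned a wide range. Per kilobase of exon, Arc, whose protein acts at synapses and travels between neurons, had the highest control mean, 69.2 CPM per kb. It was followed by Jund at 59.5, Egr1 at 54.3 and Jun at 47.3 CPM per kb. Fos stood at 6.16 and Npas4, a factor induced almost solely by neuronal depolarisation, at 1.94 CPM per kb. The lowest were Atf3 at 0.852, Pim1 at 0.787 and Maff at 0.598 CPM per kb. The lowest member count in any library was 41 reads, so every member was above the level of 3 reads throughout. Libraries kept no strand, and exons of Bdnf, Crem, Dusp5, Jun, Junb, Jund and Pim1 overlap an opposite-strand gene by at least 100 bases, so reads of the partner cannot be told apart there. For Junb the partner is the protein-coding Prdx2.

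With either hairpin, none of the 36 members changed by the test across all genes. In edgeR's quasi-likelihood test with Benjamini-Hochberg adjustment over 16438 genes, 0 of 36 members passed with shRNA A, where 0.0243% of all genes did. With shRNA B 0 of 36 passed against 1.02% of all genes, for the mean of both hairpins 0 of 36 against 0.0973%, and between the hairpins 0 of 36 against 0%. DESeq2 also passed 0 members in each, against 0.201%, 2.19%, 1.33% and 0.691% of all genes in the same order. limma-voom passed 0 as well, against 0%, 0.578%, 0.0791% and 0%. In the authors' deposited table, 35 members have an adjusted p-value, of which 0 are under 0.05 and the lowest is 0.105, for Atf3, while 379 of 15093 genes are under 0.05. A missed threshold does not show equal levels: the SE of a member's log2 fold change had a median of 0.15 with either hairpin, from 0.08 for Fosl2 to 0.50 for Atf3 with shRNA A.

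At an unadjusted p under 0.05 by edgeR, the members passing with shRNA A were Dusp4, Egr2, Ier5, Nptx2, Nr4a2 and Trib1, all 6 with higher levels. That is 16.7% of the members against 6.9% of all genes. With shRNA B they were 4 members (11.1% against 12.8%), Atf3 and Inhba with higher and Fosl2 and Jun with lower levels. For the mean of both hairpins they were 3 (8.33% against 10.4%), Ier5 and Nptx2 higher and Jun lower. Between shRNA B and shRNA A they were 7 (19.4% against 9.34%), Atf3 and Btg2 higher with shRNA B and Bdnf, Dusp1, Fos, Fosl2 and Nr4a2 lower. The hairpin comparisons with control use the same 3 control libraries.

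By their fitted log2 fold changes, 24 of 36 members were above 0 under shRNA A, with a median of 0.12, against 50.1% of all genes and a median near 0. In the same comparison 0 markers of the following cell types passed the test, and their fitted values lay as follows. The 10 oligodendrocyte markers were all above 0, with a median of 0.43, and summed to 4436 to 6953 CPM under shRNA A against 3155 to 5138 CPM in controls. Of 8 CA1 pyramidal cell markers 6 were above 0, with a median of 0.23, at a sum of 908 to 1117 CPM against 743 to 894 CPM. All 10 CA3 pyramidal cell markers were below 0, with a median of -0.24, at 1058 to 1141 CPM against 1300 to 1496 CPM. Of 10 dentate granule cell markers 9 were below 0, with a median of -0.19. All 10 meningeal markers were below 0, with a median of -0.46. Of 12 microglia markers 11 were above 0, with a median of 0.18. All 14 interferon response genes were above 0, with a median of 0.98, and 0 of them passed. No gene of these lists was at 0 in any library, and their part in the members' median was not tested. With shRNA B 16 of 36 were above 0, with a median of -0.02. In shRNA B relative to shRNA A, 29 of 36 were below 0, with a median of -0.13. The median size of the log2 fold change, regardless of sign, was 0.15 under shRNA A and 0.19 under shRNA B in the members, against 0.09 and 0.10 in all genes tested.

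**Figure D1:**
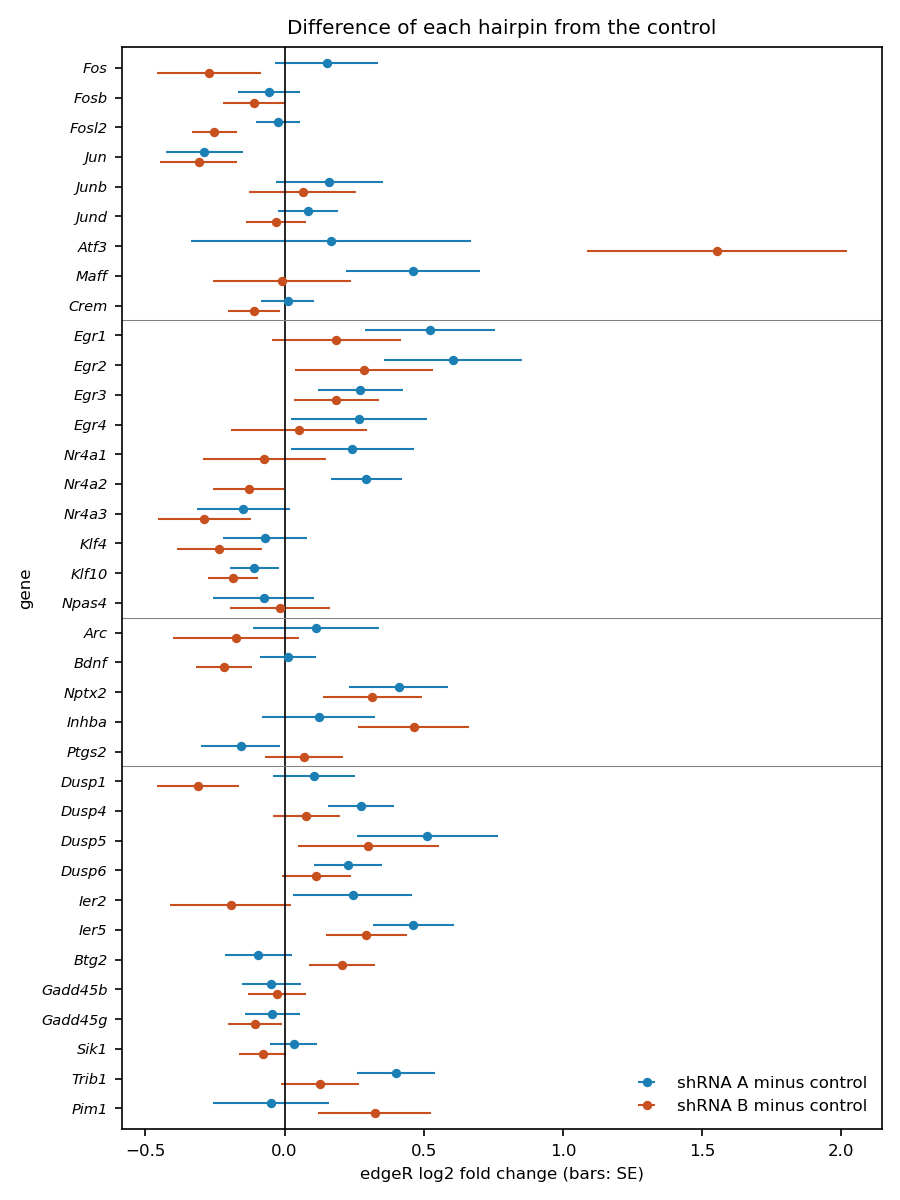
edgeR log2 fold change of each of the 36 members (points) with its SE (bars), for shRNA A minus control in blue and shRNA B minus control in orange; grey lines part the 4 role groups. With shRNA A 24 points lie above 0 and with shRNA B 16 do, and the point farthest from 0 is Atf3 under shRNA B, at 1.55, which did not pass the test.

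The medians against control depended on single control libraries. Control replicate 2 had the highest of the 3 control values for 30 of 36 members, where it did so for 33.4% of all genes. Control replicate 1 had the lowest control value for 22 members, against 34% of all genes, and was the lowest of all 9 libraries for 17 members, against 16% of all genes. The order from control 1 through control 3 to control 2 was shared by 19 of 36 members (52.8%), and by 18.6% of all genes. Over the members, the median log2 difference from the control mean was -0.15 in control 1, 0.21 in control 2 and -0.09 in control 3. It was 0.18, 0.03 and 0.27 in the shRNA A libraries and -0.04, 0.01 and -0.005 in the shRNA B libraries, in the order of their numbers. Other lists differed among controls 1, 2 and 3 as well. Pan-neuronal markers summed to 9557, 10590 and 9139 CPM, and oligodendrocyte markers to 3155, 5138 and 4793 CPM. A list of 37 other activity-induced genes summed to 2504, 2888 and 2620 CPM. Dentate granule cell markers were lowest in control 2, at 754, 643 and 864 CPM. Their part in the members' values was not tested.

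**Figure D2:**
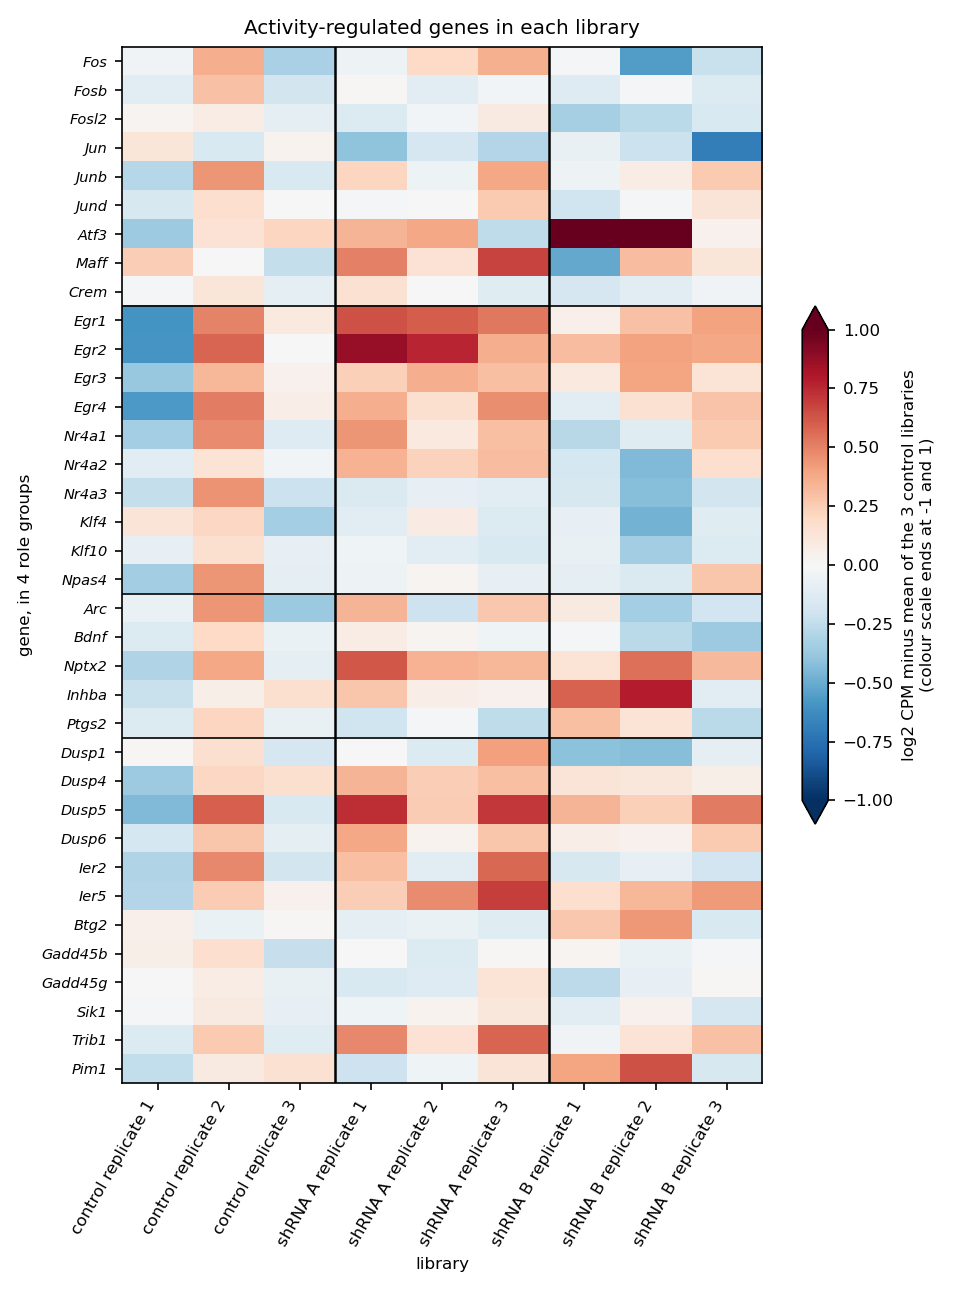
Log2 CPM of each member (rows, in 4 role groups) minus the mean of the 3 controls, in each of the 9 libraries (columns); red is above the control mean and blue below, and the colour scale ends at -1 and 1. Control replicate 2 is above the control mean for 33 of 36 members and control replicate 1 for 8, while Atf3 stands out in shRNA B replicates 1 and 2.

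Without control 2 the members' median with shRNA A was 0.21, and 30 of 36 were above 0. Without control 1 it was 0.03, with 22 above 0. Without control 3 or without shRNA A replicate 3 it was 0.05. With shRNA B it ran from -0.10 without control 3 to 0.13 without control 2, so it has no settled sign. It was also -0.09 without control 1, 0.04 without shRNA B replicate 1 and -0.06 without replicate 3. For the mean of both hairpins, 0.04 with all libraries, it was -0.04 without control 1, 0.19 without control 2 and 0.01 to 0.07 without any other library. The difference between the hairpins does not use the controls, so leaving out a control cannot test it. Its median lay between -0.18 and -0.12 whichever library was left out. With single hairpin libraries left out, 27 to 29 of 36 members were below 0 in this comparison. In that comparison 0 CA1 and 0 CA3 markers passed the test. By fitted values 7 of 8 CA1 markers were below 0, with a median of -0.31, and 8 of 10 CA3 markers above 0, with a median of 0.21. The CA1 sums were 565 to 1080 CPM under shRNA B and the CA3 sums 1121 to 1346 CPM. Of 10 dentate granule cell markers 7 were below 0, with a median of -0.09. All 14 interferon response genes were above 0, with a median of 1.55. In both of these lists 0 genes passed. The part of these lists in the members' median was not tested.

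**Figure D3:**
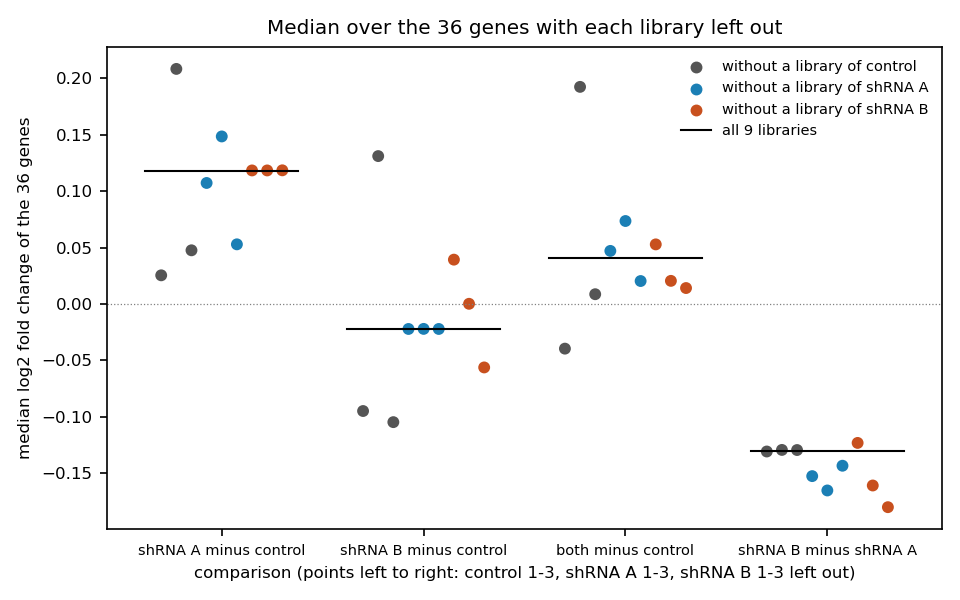
Median log2 fold change of the 36 members in each comparison with all 9 libraries (black lines) and with each library left out in turn (points, coloured by the group of the library left out). Leaving out control 1 or control 2 moves the medians against control between 0.03 and 0.21 for shRNA A. The median of shRNA B minus shRNA A, which does not use the controls, lies between -0.18 and -0.12.

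The AP-1 factors form dimers of Fos and Jun family proteins on promoters and enhancers of later genes. Fos measured 13.8, 18.3 and 11.4 CPM in the controls, 13.7, 16.3 and 18.2 under shRNA A, and 14.1, 9.65 and 12.2 under shRNA B. The groups overlapped, with control 2 and shRNA A replicate 3 the highest. Its log2 fold change was 0.15 ± 0.18 (SE, adjusted p = 0.886) for shRNA A and -0.27 ± 0.19 (adjusted p = 0.606) for shRNA B. Without control 2 the first was 0.35 and the second -0.07. Between the hairpins it was -0.42 ± 0.19 (adjusted p = 0.522).

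Fosb, which also encodes the long-lived product deltaFosB, was at 18.4, 24.5 and 17.5 CPM in the controls, 20.1, 18.5 and 19.5 under shRNA A and 18.2, 19.7 and 18.1 under shRNA B. Control 2 alone was above the rest, which lay within 17.5 to 20.1 CPM. Junb, a Jun family member, measured 40.7, 67.5 and 44.6 CPM in the controls, 57.7, 48.0 and 65.1 under shRNA A and 48.0, 52.3 and 59.7 under shRNA B. The control libraries of Junb held both its lowest and its highest value of all 9. Neither gene passed the test in either comparison with control, with adjusted p from 0.754 to 0.941.

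Fosl2, a Fos-related factor, was at 37.4, 38.7 and 34.3 CPM in the controls, 33.4, 36.03 and 39.2 under shRNA A, and 29.2, 30.4 and 33.1 under shRNA B. All 3 shRNA B libraries lay below all of the other 6. The log2 fold change with shRNA B was -0.25 ± 0.08 (SE), the smallest p-value of any member in that comparison, and did not pass (adjusted p = 0.196). Jun measured 163, 135 and 154 CPM in the controls, 114, 134 and 123 under shRNA A and 143, 130 and 93.1 under shRNA B. Its shRNA A values lay below the controls, while shRNA B replicate 1 was within their range. The log2 fold changes were -0.29 ± 0.14 and -0.31 ± 0.14 (SE), with adjusted p of 0.741 and 0.385. Without shRNA B replicate 3 the second was -0.15.

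Atf3, a factor of the ATF/CREB family best known from injured neurons and cellular stress, had the largest difference of any member. It measured 1.39, 2.005 and 2.11 CPM in the controls and 2.30, 2.38 and 1.51 CPM under shRNA A. With shRNA B it was at 6.54, 7.77 and 1.87 CPM, so that replicates 1 and 2 were above every other library and replicate 3 was within the control range. The log2 fold change was 1.55 ± 0.47 (SE) and did not pass (adjusted p = 0.212). Without shRNA B replicate 3 it was 1.96 ± 0.21 against control (adjusted p = 0.00375) and 1.79 ± 0.21 against shRNA A (adjusted p = 0.0034). That library is the one that departs from its group, so these p-values are no evidence of a change. Without shRNA B replicate 2 the log2 fold change was 1.21 against control and 1.04 against shRNA A. Of the remaining bZIP factors, Jund, Maff and Crem had log2 fold changes against control between -0.11 and 0.46, and -0.12, -0.47 and -0.12 between the hairpins, and none passed. Maff lay between 1.06 and 2.49 CPM over the 9 libraries and Crem between 11.3 and 14.1 CPM.

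Inhba, which encodes the activin A subunit, had the same library pattern as Atf3. It measured 6.24, 7.61 and 8.16 CPM in the controls, 8.85, 7.62 and 7.50 under shRNA A, and 11.0, 12.6 and 6.73 under shRNA B. Replicates 1 and 2 of shRNA B were above all other libraries and replicate 3 was below the control mean. The log2 fold change with shRNA B was 0.46 ± 0.20 (SE, adjusted p = 0.361), and 0.68 ± 0.13 without replicate 3 (adjusted p = 0.0371). Without shRNA B replicate 2 it was 0.28. Replicate 3 is again the library that departs from its group, so the p-value without it is no evidence of a change. Btg2, an antiproliferative gene, and Pim1, a kinase gene, shared the pattern and were singled out after their values were seen. Btg2 was at 20.9, 23.4 and 15.6 CPM under shRNA B against 15.9 to 17.9 CPM in the other 6 libraries, and Pim1 at 3.46, 4.12 and 2.35 against 2.21 to 2.93 CPM. Without shRNA B replicate 3, Btg2 was higher with shRNA B than with shRNA A by 0.45 ± 0.08 on the log2 scale (adjusted p = 0.0362). The same limit holds for this p-value. In all, 4 of 36 members (11.1%) had shRNA B replicates 1 and 2 above the other 7 libraries, as 5.27% of all genes did.

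Marker levels also differed among the shRNA B libraries. The 8 CA1 pyramidal cell markers with a row summed to 565 and 764 CPM in shRNA B replicates 1 and 2 and to 1080 CPM in replicate 3, against 743 to 894 CPM in controls and 908 to 1117 CPM under shRNA A. The 10 dentate granule cell markers summed to 755 and 752 CPM in replicates 1 and 2 and to 464 CPM in replicate 3, against 643 to 864 CPM in controls and 621 to 716 CPM under shRNA A. Of all genes, 0.779% rose with shRNA B in edgeR's test. Of the 14 interferon response genes, 10 rose with shRNA B in that test: Ifit1, Ifit3, Oasl2, Mx1, Usp18, Rtp4, Ifi44, Gbp3, Bst2 and Ifih1. The 14 summed to 135, 327 and 182 CPM in its libraries, to 51.1 to 56.4 CPM in controls and to 55.5 to 95.7 CPM under shRNA A. Of 12 microglia markers 4 rose (C1qa, C1qb, C1qc and Ctss), and the list summed to 732 to 817 CPM under shRNA B, 602 to 639 CPM in controls and 639.9 to 729.8 CPM under shRNA A. The 10 oligodendrocyte markers set replicate 2 apart instead, at 6371, 3564 and 7274 CPM in shRNA B replicates 1, 2 and 3. They summed to 3155 to 5138 CPM in controls and 4436 to 6953 CPM under shRNA A. No marker of these lists was at 0 in any library. Their part in the levels of Atf3, Inhba, Btg2 and Pim1 was not tested. Of 10 astrocyte markers 1 rose with shRNA B, Aldh1l1, from 62.4 ± 4.03 to 86.5 ± 4.40 CPM (SD, n = 3; adjusted p = 0.0137 by edgeR), and of 10 meningeal markers 1 fell, Slc6a13, from 5.49 ± 1.36 to 2.76 ± 0.60 CPM (SD, n = 3; adjusted p = 0.0376 by edgeR). By fitted values 4 of the 10 astrocyte markers were above 0 with shRNA B and 6 below, with a median of -0.03. That list summed to 3971 to 4288 CPM under shRNA B and 3984 to 4366 CPM in controls. All 10 meningeal markers were below 0, with a median of -0.52. Of 12 endothelial and pericyte markers 0 passed with either hairpin.

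**Figure D4:**
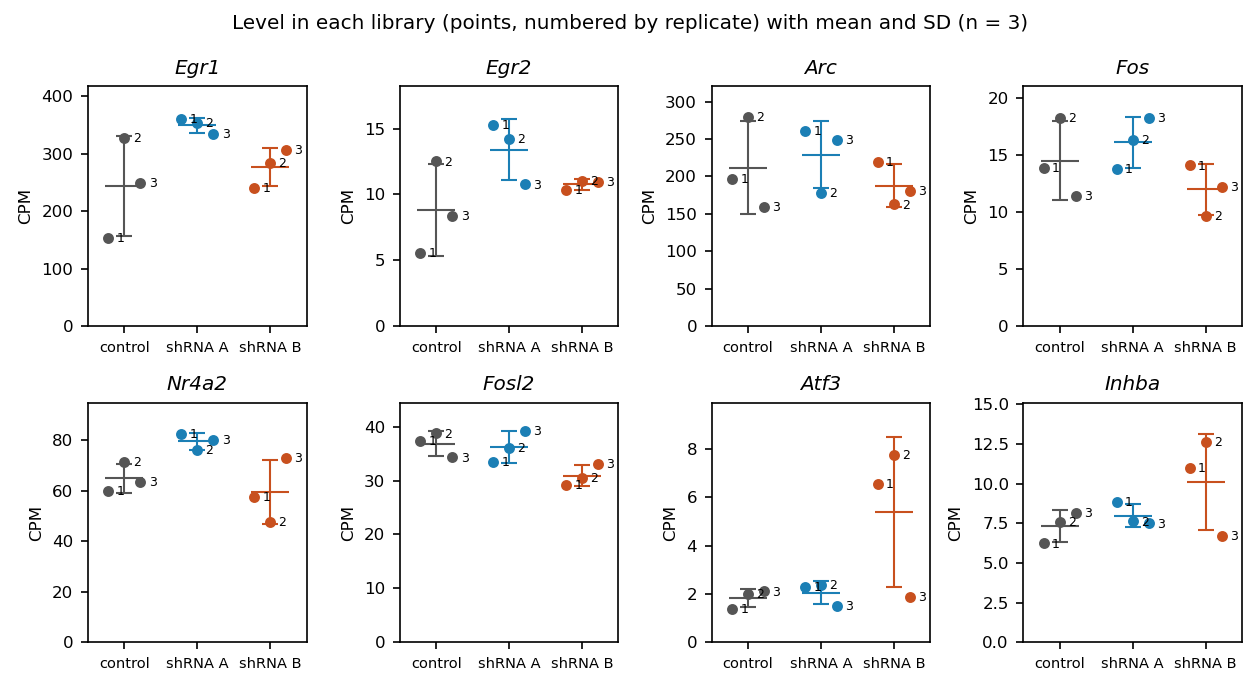
CPM of 8 members in each library (points, numbered by replicate) with the mean and SD of each group (n = 3), on axes that start at 0. Egr1 and Egr2 have a low control replicate 1, and Atf3 and Inhba have shRNA B replicates 1 and 2 above all other libraries while replicate 3 is among the controls.

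The Egr genes encode zinc finger factors that respond to MAP kinase signalling, and with shRNA A each of the 4 was above its control mean in all 3 libraries. On the log2 scale the same held with shRNA B for Egr1, Egr2 and Egr3. Egr4 was below its control mean in shRNA B replicate 1, at -0.11. Control 2 was above that mean for each of the 4, and control 1 below it. Egr1 (zif268), the member most used to map memory circuits, measured 153, 328 and 249 CPM in the controls and 361, 354 and 335 CPM under shRNA A. With shRNA B it measured 240, 284 and 306 CPM. All shRNA A values were above all controls and all shRNA B values, with control 2 just under the lowest of them. The log2 fold change with shRNA A was 0.52 ± 0.23 (SE) and did not pass (adjusted p = 0.729). It was 0.28 without control 1 and 0.80 without control 2.

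Egr2 measured 5.53, 12.5 and 8.38 CPM in the controls, 15.3, 14.2 and 10.8 under shRNA A and 10.3, 11.0 and 10.9 under shRNA B. Its log2 fold change with shRNA A, 0.61 ± 0.25 (SE, adjusted p = 0.72), was the largest of any member in that comparison. Without control 1 it was 0.36 and without control 2 it was 0.94. Egr4 was at 39.99, 84.8 and 62.5 CPM in the controls, at 76.9, 66.5 and 82.1 under shRNA A and at 55.2, 66.3 and 72.8 under shRNA B, so the range of the controls held all 6 knock-down values. Egr3 lay at 70.7 to 116 CPM in controls, 108 to 118 under shRNA A and 98.3 to 121 under shRNA B, with log2 fold changes of 0.27 ± 0.15 and 0.19 ± 0.15 (SE).

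The Nr4a genes encode orphan nuclear receptors, and Nr4a2 gave the smallest p-value of any member between the hairpins. It measured 60.1, 71.5 and 63.5 CPM in the controls, 82.7, 76.1 and 80.2 under shRNA A, and 57.5, 47.9 and 73.1 under shRNA B. The shRNA A values were above all of the other 6, and shRNA B replicate 3 was above every control. The log2 fold change was 0.29 ± 0.13 (SE) from control to shRNA A (adjusted p = 0.72) and -0.42 ± 0.13 from shRNA A to shRNA B (adjusted p = 0.33). Without shRNA B replicate 3 the latter was -0.60 ± 0.10 (adjusted p = 0.0174), and without replicate 2 it was -0.29. Replicate 3 is the shRNA B library nearest to the shRNA A values, so the p-value without it is no evidence of a change. Nr4a1 measured 69.5, 123 and 80.5 CPM in the controls, 120, 94.2 and 109 under shRNA A and 72.7, 80.9 and 106 under shRNA B, with all groups overlapping. Nr4a3 was highest in control 2, at 185 CPM, and between 101 and 128 CPM in the other 8 libraries.

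Npas4 measured 6.14, 10.6 and 7.31 CPM in the controls, 7.54, 7.95 and 7.40 under shRNA A and 7.32, 7.08 and 9.46 under shRNA B. Again the controls held the lowest and the highest value of all 9 libraries. Its log2 fold changes, -0.07 ± 0.18 and -0.02 ± 0.18 (SE), were within their errors, and both were above 0 without control 2, at 0.18 and 0.24. Klf4 and Klf10, zinc finger factors of the Krüppel-like family, had log2 fold changes against control between -0.23 and -0.07, and neither passed.

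Among the effectors, Arc measured 196, 280 and 159 CPM in the controls, 260, 178 and 249 under shRNA A and 219, 162 and 181 under shRNA B. The values of both hairpin groups lay within the range of the controls. The log2 fold changes were 0.11 ± 0.23 and -0.18 ± 0.23 (SE), with adjusted p of 0.94 and 0.817, and without control 2 they were 0.36 and 0.08. Bdnf, the neurotrophin gene, was at 55.1, 69.3 and 57.9 CPM in the controls, 63.8, 61.5 and 58.6 under shRNA A and 59.7, 50.1 and 46.9 under shRNA B. The 2 lowest values were shRNA B libraries, but the third of that group was inside the control range. Its log2 fold change was 0.01 ± 0.10 under shRNA A and -0.22 ± 0.10 under shRNA B (SE), with adjusted p of 0.986 and 0.395.

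Nptx2, a secreted pentraxin that gathers AMPA receptors at synapses, was at 38.2, 61.9 and 44.4 CPM in the controls. It measured 72.6, 60.1 and 59.3 CPM under shRNA A and 51.9, 69.1 and 58.9 under shRNA B. Control 2 was inside the range of both hairpin groups, and the other controls were below both. The log2 fold changes were 0.41 ± 0.18 and 0.32 ± 0.18 (SE), with adjusted p of 0.721 and 0.514. Ptgs2, which encodes the inducible cyclooxygenase, had 22.2 to 33.0 CPM over the 9 libraries and log2 fold changes against control of -0.16 and 0.07.

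The feedback regulators include the dual-specificity phosphatases, which remove phosphate from MAP kinases. Ier5, an immediate early gene, had the smallest p-value of any member with shRNA A and for the mean of both hairpins. It measured 29.6, 43.5 and 37.5 CPM in the controls, 43.1, 50.5 and 58.9 under shRNA A and 40.8, 46.0 and 49.0 under shRNA B. Only control 2 reached into the range of the knock-down libraries. The log2 fold change was 0.46 ± 0.15 (SE, adjusted p = 0.613) in shRNA A, 0.29 ± 0.15 (adjusted p = 0.442) in shRNA B and 0.38 ± 0.13 (adjusted p = 0.344) for the mean of both.

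Trib1, a pseudokinase gene, was at 13.2, 17.4 and 13.3 CPM in the controls, 20.2, 15.99 and 21.7 under shRNA A and 14.2, 15.97 and 17.8 under shRNA B. Its log2 fold change with shRNA A was 0.40 ± 0.14 (SE, adjusted p = 0.659). Dusp4 measured 33.8, 50.3 and 48.8 CPM in the controls, 55.4, 51.7 and 53.8 under shRNA A and 47.7, 47.3 and 45.4 under shRNA B. The shRNA A values lay above all of the other 6; control 2 came closest. They had a log2 fold change of 0.27 ± 0.12 (adjusted p = 0.72), which was 0.11 without control 1.

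Dusp5 measured 16.04, 33.0 and 19.7 CPM in the controls, 36.4, 26.0 and 35.7 under shRNA A and 27.6, 25.7 and 31.4 under shRNA B. Control 2 was above all shRNA B values while the other controls were below every knock-down library. Dusp1, a phosphatase induced with Fos, was at 15.2, 16.9 and 13.4 CPM in the controls, 15.2, 13.7 and 20.1 under shRNA A and 11.4, 11.2 and 14.2 under shRNA B. Its log2 fold change between the hairpins was -0.42 ± 0.15 (SE, adjusted p = 0.401). The others, Dusp6, Ier2, Gadd45b, Gadd45g and Sik1, had log2 fold changes against control between -0.19 and 0.24, and none passed in any comparison. Between the hairpins Ier2 was at -0.44. Sik1, the salt-inducible kinase that restrains CREB coactivators, was the steadiest member, at 15.1 to 18.4 CPM.

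Groups without overlapping values were about as frequent among the members as among all genes, or rarer. With shRNA A there were 5 such members (13.9%, against 12.5% of all genes), Dusp4, Egr1 and Nr4a2 above the controls and Btg2 and Jun below. With shRNA B the single one was Fosl2 (2.78% against 18.1%). With all 6 knock-down libraries set against the controls there was none, against 4.5% of all genes. Between the hairpins there were 5 (13.9% against 14.2%), Dusp4, Egr1, Fosl2, Nr4a2 and Nr4a3, all lower with shRNA B.

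The members varied more between libraries of one group than most genes. The biological coefficient of variation (BCV), edgeR's estimate of the relative spread between libraries of a group beyond counting noise, had a median of 12.5% in the members and 8.71% in all genes tested. For 30 of 36 members (83.3%) it was above the trend of genes at the same level, as for 27.7% of all genes. It was largest for Atf3, at 37.6%, Dusp5, at 21.4%, Egr4, at 20.8%, and Egr2, at 20.7%, and smallest for Sik1, at 7.19%. This is a description without a test.

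The spread was widest in the control group. There the highest library exceeded the lowest by a median of 1.396-fold over the members, against 1.16-fold over all genes, and 13 of 36 members differed by more than 1.5-fold. The median was 1.21-fold with shRNA A, with 2 members over 1.5-fold, and 1.26-fold with shRNA B, with 6. The shares over 1.5-fold in all genes were 12.1%, 11.7% and 13.1%. The largest span among the controls was that of Egr2, 2.25-fold, and the largest of all was that of Atf3 under shRNA B, 4.06-fold.

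**Figure D5:**
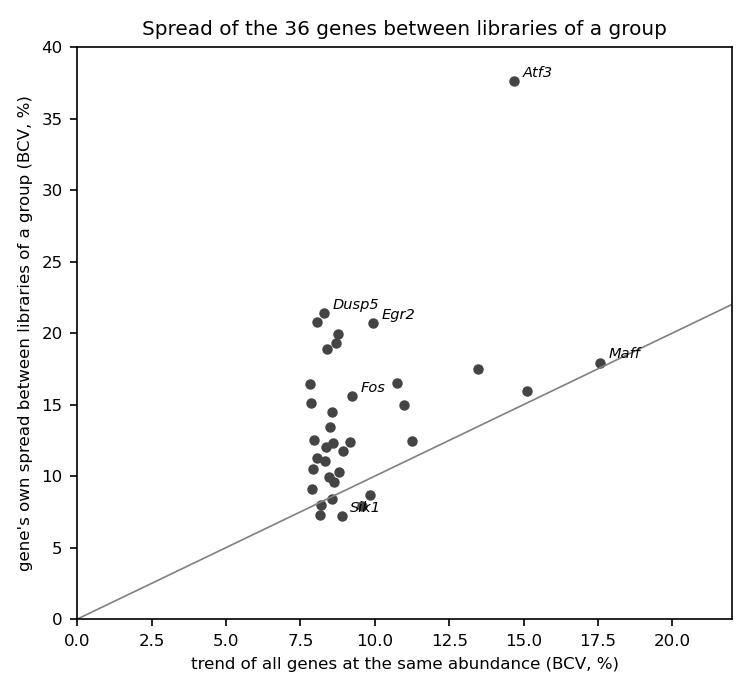
Spread of each of the 36 members between libraries of a group (vertical, BCV in %) against the trend of all genes at the same level (horizontal, BCV in %); the line marks equality. Of the 36 points 30 lie above the line, with Atf3 the highest at 37.6% and Sik1 the lowest at 7.19%.

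Fos was then compared with 8 immediate early members over the 9 libraries, on the log2 CPM scale. Pearson's r was 0.74 with Arc (Spearman's rho 0.70) and 0.73 with Dusp1 (rho 0.67), with exact permutation p of 0.0246 and 0.0242. After Benjamini-Hochberg adjustment over the 8 relations the p-value was 0.0986 for each, so neither passed, and the adjusted p of both rho values was 0.236. Without control 2 and shRNA B replicate 2, the libraries farthest from the median of Fos, r was 0.55 and 0.56. Within groups, as deviations from the group means, it was 0.69 and 0.55. The other 6 relations had r from 0.24 with Egr2 to 0.49 with Nr4a1 and adjusted exact permutation p from 0.387 to 0.545.

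The genes that carry the signal to the members were measured as a list of 35, from NMDA receptor subunits and calmodulin kinases to CREB, SRF and MEF2 factors. In edgeR's test 0 changed with shRNA A, and 1 of 35 fell with shRNA B, where 0.237% of all genes fell. That gene was Rps6ka5, which encodes the kinase MSK1 that phosphorylates CREB and histone H3, at 21.5, 21.8 and 19.5 CPM in the controls and 16.4, 12.8 and 15.0 under shRNA B. Its log2 fold change was -0.50 ± 0.09 (SE, adjusted p = 0.0298). Its adjusted p was 0.0522 to 0.128 without any 1 of the 3 controls, shRNA A replicate 2 or shRNA B replicate 2, and 0.0796 with only the groups of the contrast, each of which ends the call. It was called under 12 of 18 alternatives. The fitted log2 fold changes were below 0 for 27 of 35 genes with each hairpin, with medians of -0.07 and -0.08. Of all genes, 50.1% were above 0 with shRNA A and 50.3% with shRNA B.

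Of 37 other activity-induced genes, 0 changed with shRNA A and 1 fell with shRNA B, where 0.237% of all genes fell. That was Scg2, which encodes the neuropeptide precursor secretogranin II, at 216, 219 and 199 CPM in the controls and 175, 148 and 157 under shRNA B. Its log2 fold change was -0.40 ± 0.08 (SE, adjusted p = 0.045), and 0.04 ± 0.08 under shRNA A. The call was lost, at adjusted p of 0.0625 to 0.192, without any 1 control, shRNA A replicate 1 or 2, or shRNA B replicate 2 or 3. It was also lost under library sizes alone (adjusted p = 0.0541), limma-voom (0.0596) and only the groups of the contrast (0.0786), so that 8 of 18 alternatives called it. The medians over the list were 0.03 and -0.01, with 22 and 17 of 37 genes above 0. Beside these, 12 of 13 pan-neuronal markers had a log2 fold change below 0 under shRNA A and 13 of 13 under shRNA B, with medians of -0.07 and -0.11, and 0 of them passed in either. Control 3 held choroid plexus tissue markers at a summed 1062 CPM; the other 8 libraries had 24.1 to 45.7 CPM. Its values for the members were given above, and the part of that tissue in them was not tested.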

How the data were processed

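The authors deposited whole-number read counts per Ensembl gene for 9 libraries, raw per the file headers. Build mm9, HTSeq 0.6.1, TopHat 1.4.1, DESeq2 1.4.5 under R 3.1.1, and SAMtools 0.1.19 are listed, without settings, by the submitters' processing notes. The annotation used for counting was not given in the sources used here. The authors' deposited table also holds a mean normalized signal, log2 fold changes, their standard errors and a likelihood ratio statistic (scores), and p-values. Only adjusted p-values from it are quoted.

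Counts were tested as deposited with edgeR 4.0.16 in R 4.3.3: filterByExpr by group, TMM, and the robust quasi-likelihood fit on all 9 libraries, with Benjamini-Hochberg adjustment over 16438 genes, a threshold of 0.05 and two-sided tests. An SE is the log2 fold change divided by the root of F. Levels are CPM, and log2 CPM used a prior count of 2. DESeq2 1.42.0, limma-voom 3.58.1, other scalings and filters, a replicate block and leaving out each library were alternatives. The test was checked on counts simulated from edgeR's own model and fitted spread. That check required only that most large changes be found. It does not bear on differences as small as those of most members. One read stood for 0.0262 to 0.0343 CPM; floors of 3 reads cover counting error only. No pair of libraries matched within counting noise (chi-square per degree of freedom 8.32 to 22.1). Promoter windows are of GRCm38.p6 and exon overlaps of GENCODE's GRCm38 annotation, not of mm9.

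Members and gene lists were chosen with earlier results of these data known. Values in every library are given for Fos, Fosb, Junb, Arc, Egr1, Npas4, Nr4a1, Bdnf, the 4 members of smallest p in each comparison, and the 4 of largest BCV. For the other lists, the genes that passed the threshold are named; the rule also chose 3 of smallest p in lists with none, which are given only as part of their list.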

Additional observations from a re-analysis of the deposited data

How the results depend on the processing

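Each comparison was refitted under library sizes alone, RLE factors, DESeq2, limma-voom, no low-count filter, a mean of at least 1 CPM, robust estimation off, the groups of the contrast alone, a replicate block, and each library left out. The number of members called was 0 under each of these with shRNA A and for the mean of both hairpins. Leaving out libraries in turn gave 0 to 2 called members with shRNA B and 0 to 3 between the hairpins, in each case the higher number without shRNA B replicate 3. With the replicate block the members' medians were 0.11, -0.02, 0.04 and -0.13, and 0 members were called in each comparison. Whether the numbers pair the libraries was not settled. Same-numbered libraries' deviations from their group means correlated from -0.13 to 0.27, and differently numbered ones from -0.20 to 0.12. Between the hairpin groups the same-numbered pairs were at 0.11, 0.09 and 0.27, and the others at -0.20 to 0.10. Between control and hairpin libraries the same-numbered pairs were at -0.13 to -0.01, and the others at -0.04 to 0.12. Of 1491 fold changes of named members under alternatives, 45 had the other sign and none of those was called, and 4 passed the threshold only there. No member passed in the main fit, so none could reverse after passing. The CRE core in place of the full CRE raised the members with a match from 3 to 17. The lowest member count was 41 reads.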
